A study of Mus musculus with 39 samples.

Results

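Among 18 small RNA libraries from the hearts of 6-week-old mice, 3 gave more than 40% of all their counts to a single microRNA arm, miR-143-3p. They were male_6wk replicate 2, male_6wk replicate 6 and female_6wk replicate 1, and the other 15 libraries of that age stayed below 14%. The members were chosen by this measured share and not by a label: nothing in the labels sets these 3 hearts apart, so they are not a treated group, and the level of miR-143 in them is described here without a test. The comparisons that carry a test concern all other microRNA arms, after both arms of miR-143 were taken out of every total.

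All 18 libraries came from 6-week-old wild-type mice of the inbred strain FVB/NJ, 12 from males and 6 from females, with no treatment named in the labels. The 15 libraries used for comparison were 10 male and 5 female. The series held 39 libraries in all, and the other 21 were from mice of 4 to 16 weeks. RNA was taken from the frozen ventricular apex according to the protocol, while the tissue tag names the whole heart. Whether the libraries were from different animals is not in the labels, so the p-values reflect spread between samples that may be technical.

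MicroRNAs are short RNAs that bind messenger RNAs through a seed near their 5′ end and lower their translation or stability. Each is cut from a hairpin whose 5p and 3p arms can both be kept. miR-143 is the best known microRNA of smooth muscle, the contractile cell of the artery wall, where together with miR-145a it holds the cell in its contractile state; heart muscle cells themselves express little of it. Mir143 and Mir145a are cut from the same long primary transcript, whose host in the mouse is the long noncoding RNA Carmn.

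The arms below are some of those named in the comparison further on, with partners by seed or hairpin. None of them was called by edgeR over the 18 libraries. Sequences are RefSeq's mature microRNAs of GRCm38.p6, 5′ to 3′, with bases 2 to 8, the seed, in capitals. RefSeq held a mature sequence for 302 of the 347 arms tested. miR-215-5p and miR-192-5p share a seed and differ at 3 of 21 bases. miR-10b-5p and miR-10a-5p share a seed and differ at 1 of 23 bases. miR-1249-3p and both arms of miR-144 have seeds of their own in this set.
miR-215-5p: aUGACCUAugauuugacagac
miR-192-5p: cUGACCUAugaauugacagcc
miR-10b-5p: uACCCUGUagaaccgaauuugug
miR-10a-5p: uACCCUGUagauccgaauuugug
miR-1249-3p: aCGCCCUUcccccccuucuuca
miR-144-5p: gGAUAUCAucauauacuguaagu
miR-144-3p: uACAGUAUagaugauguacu

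miR-143-3p took 43.55% of the counts of male_6wk replicate 2 (95% Wilson interval 43.51 to 43.59%, of 5129157 counts). It took 43.01% of those of male_6wk replicate 6 (42.97 to 43.04%, of 8141310) and 43.58% of those of female_6wk replicate 1 (43.54 to 43.61%, of 7998435). In the other 15 libraries the share ran from 8.92% to 13.6% with a median of 11.5%. No library fell between these ranges: the member with the smallest share had 43.0%, and the library just below the 40% line, female_6wk replicate 4, had 13.6%. Among the 21 libraries of other ages the share was 2.46% to 15.4%, so none of them reached the line either. The intervals cover counting error only, since reads copied by PCR are not independent molecules.

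Set against the rest of each library, the level of miR-143-3p was nearly the same in the 3 members. In CPM, the usual count scaling, taken here over all other arms, it was 771710 in male_6wk replicate 2, 754857 in male_6wk replicate 6 and 772591 in female_6wk replicate 1. The mean was 766386 ± 9994 (SD, n = 3) in the members and 131583 ± 16300 (SD, n = 15) in the others, which ran from 97911 to 156835 around a median of 129727. Over that median the members stood 5.95-, 5.82- and 5.96-fold higher in the same order. Counts above the rate of the median library made up 36.2%, 35.6% and 36.3% of everything sequenced in the 3 libraries.

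The partner arm of the hairpin was high in the same 3 libraries. miR-143-5p, which is kept far less often than the 3p arm, had 885, 1481 and 1378 counts in male_6wk replicate 2, male_6wk replicate 6 and female_6wk replicate 1. As CPM of the other arms this was 305.7, 319.3 and 305.4, against 26.6 to 45.9 (median 36.5) in the other 15 libraries, so these ranges did not overlap. Over the median of the 15 the members stood 8.39-, 8.76- and 8.38-fold higher. The ratio of 3p to 5p counts was 2524, 2364 and 2529 in the members, and 2282 to 5689 in the others. The 5p arm was not used to choose the libraries, but it comes from the same hairpin as the arm that was, so its level is given as a description too.

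**Figure D1:**
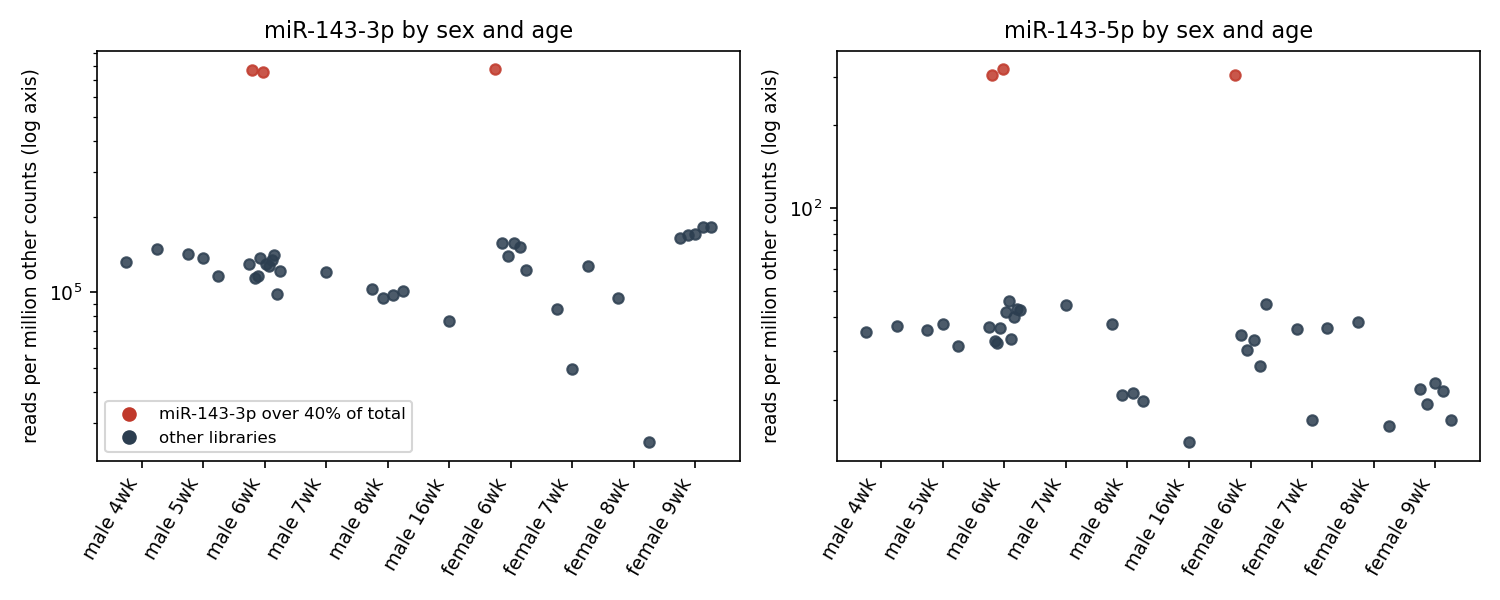
Level of miR-143-3p (left) and miR-143-5p (right) in each of the 39 libraries, in CPM of the other arms on log axes, by sex and age; each point is 1 library and the 3 red points are the libraries with miR-143-3p over 40% of the total. On the left the red points lie between 754857 and 772591 and the other 6-week libraries between 97911 and 156835; on the right they lie between 305.4 and 319.3 and the others between 26.6 and 45.9.

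The labels name no batch. The libraries were cut into 7 sets by the share of counts given to each of several loci with like mature sequences. The number of sets was fixed for the clustering and not estimated. Of the 3 members, male_6wk replicate 2 was in set 2 and the other pair in set 3. Each of these sets held 4 of the other 6-week libraries. The remaining 7 of the 15 were in set 1 (1 library) or set 4 (6 libraries), which held no member. Values from a model that holds the set are therefore given beside the pooled ones. Against the other libraries of its own set, the miR-143-3p level of each member was 6.29-fold higher in male_6wk replicate 2, 6.19-fold in male_6wk replicate 6 and 6.34-fold in female_6wk replicate 1. The 3p to 5p ratio differed between sets: it was 3498 to 3751 in the other libraries of set 2, above the member of that set, and 2282 to 3102 in those of set 3, which took in both of its members.

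The 3 members were separate libraries and not copies of each other. The chi-square of the remaining counts per degree of freedom was 32.2 or more for every pair of them, beside a lowest value of 29.9 over the 81 pairs of libraries of one sex at 6 weeks. By nearest correlation and by distance within a set, the rest of their profile did not set them apart. By distance to the median of all the other 6-week libraries it did. By Pearson correlation over the tested arms, the library closest to male_6wk replicate 2 was male_6wk replicate 3. The closest to male_6wk replicate 6 and to female_6wk replicate 1 was male_6wk replicate 7 in both cases. None of these is a member. The chi-square of male_6wk replicate 6 was lower with the other members (32.2 and 35.5) than with male_6wk replicate 7 (54.8). Chi-square grows with depth. Those members had 2894532 and 4511508 counts without miR-143 and male_6wk replicate 7 had 8128183, so these values do not rank likeness. For male_6wk replicate 2 the chi-square was lowest with male_6wk replicate 3 (30.2). The root mean square log2 distance to the median of the other libraries of the same set was 0.259 to 0.308 in the members and 0.246 to 0.522 in the 14 others for which it could be computed, which took in the members' range. To the median of all other 6-week libraries, whatever their set, the distance was 0.352, 0.352 and 0.376 in the members. In the 15 others it ran from 0.398 to 0.769, so the members lay closer to that median than any of them. A member was compared with the median of 15 libraries and another library with that of 14. This difference was not tested.

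No other arm passed the test. With both miR-143 arms left out, edgeR's quasi-likelihood test called 0 of 347 arms (0%) at an adjusted p under 0.05, and the smallest adjusted p was 0.463. Without adjustment 28 arms (8.07%) had a p under 0.05. DESeq2 called 1 arm (0.288%), miR-144-5p, with 48 at an unadjusted p under 0.05, and limma-voom called 0, with 23. The differences of the 347 arms had a median of -0.02 on the log2 scale and ran from -2.26 to 1.19, with 180 below 0 and 167 above. With set in the model edgeR again called 0 arms, with 17 at an unadjusted p under 0.05.

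Not passing the test does not show that the arms were equal. For 261 of the 347 arms the 95% interval of the log2 difference stayed inside ±1, and for 106 it stayed inside ±0.5. With set in the model these were 323 and 234. The 3 members gave 2894532, 4638456 and 4511508 counts to arms other than miR-143, so that a count of 0 in them allows up to 1.04, 0.647 and 0.665 CPM in turn.

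**Figure D2:**
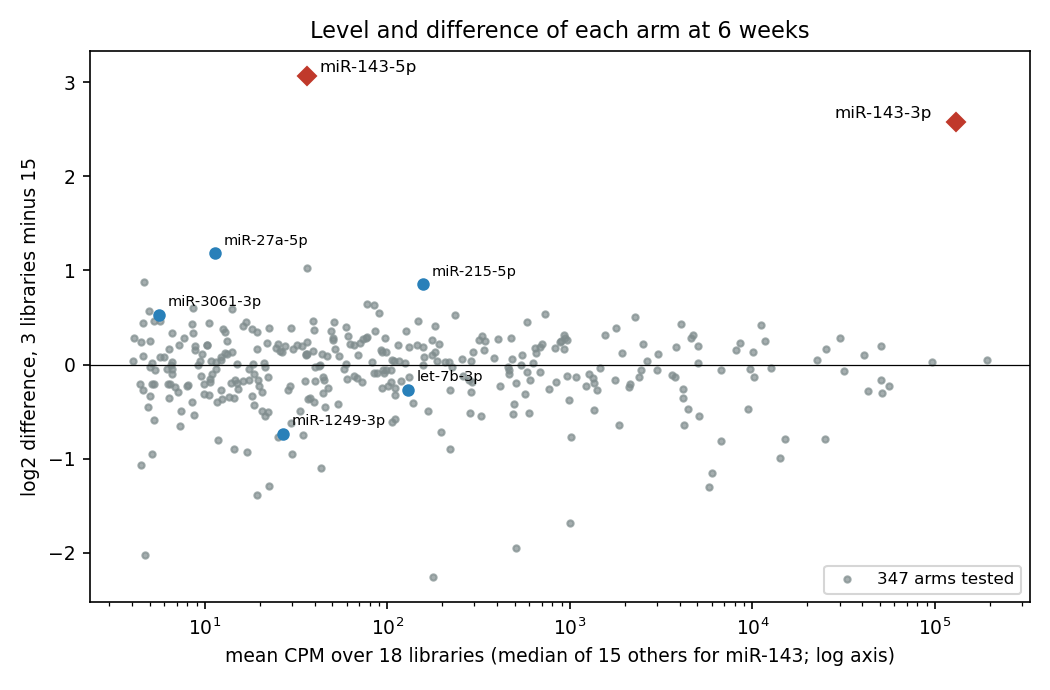
Difference between the 3 libraries and the 15 others (log2 scale, vertical) against mean level in CPM (log axis) for the 347 arms tested; the 5 arms with the smallest p are blue and named. The 2 red diamonds show miR-143-3p and miR-143-5p as log2 ratios of median CPM of the other arms, placed at the median of the 15 others; they chose the libraries or share a hairpin with the arm that did, and the tested arms all lie between -2.26 and 1.19.

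The arms of miR-145a, made from the same primary transcript as miR-143, were inside the range of the other libraries. In RefSeq's annotation of GRCm38.p6, Mir143 lies at chr18:61649196-61649258 and Mir145a at chr18:61647825-61647894, with 1301 bases between them, both within Carmn at chr18:61645878-61665538. The deposited coordinates put the miR-143-3p arm at chr18:61649199-61649219 on the minus strand. miR-145a-5p was at 1072 CPM in male_6wk replicate 2, 1143 in male_6wk replicate 6 and 750.9 in female_6wk replicate 1, where CPM is over counts without miR-143, scaled by TMM. The other 15 libraries ran from 317 to 1258 CPM with a median of 608. The difference was 0.54 ± 0.32 (log2, SE) by edgeR with an adjusted p of 0.463, and 0.27 ± 0.30 with set in the model. None of the 3 libraries stood above all of the others, and the 95% interval of the pooled difference was -0.13 to 1.20. The libraries were chosen by miR-143-3p, so a comparison with its excess was not tested.

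miR-145a-3p was at 662, 648 and 594 CPM in the same order, against 572 to 2346 CPM (median 723) in the others. The pooled difference was -0.77 ± 0.42 (log2, SE; edgeR adjusted p 0.463). Levels of miR-145a-3p differed between library sets. The 7 libraries of sets 1 and 4 had 1178 to 2346 CPM, while the others of set 2 had 582 to 723 and those of set 3 had 572 to 704. With set in the model the difference was -0.02 ± 0.16.

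Whether miR-143-3p and its partner arms move together was looked at in the 15 libraries that were not chosen. Over all 15, with library sets pooled, Spearman's rho with miR-145a-3p was 0.76 (adjusted p 0.00429 by permutation). The other relations did not pass there. With values centred within sets (14 libraries), that rho was -0.22 (adjusted p 0.563 by permutation), and no relation passed. The 6 libraries of set 4 were looked at as well, in a fit that was not planned. In them the Spearman correlation of miR-143-3p was -0.77 with miR-143-5p, 0.03 with miR-145a-5p and -0.77 with miR-145a-3p, and Pearson's r was -0.72, 0.04 and -0.45. With 3 relations tested by exact permutation within set 4, the smallest adjusted p for a rank correlation was 0.154, and none passed.

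**Figure D3:**
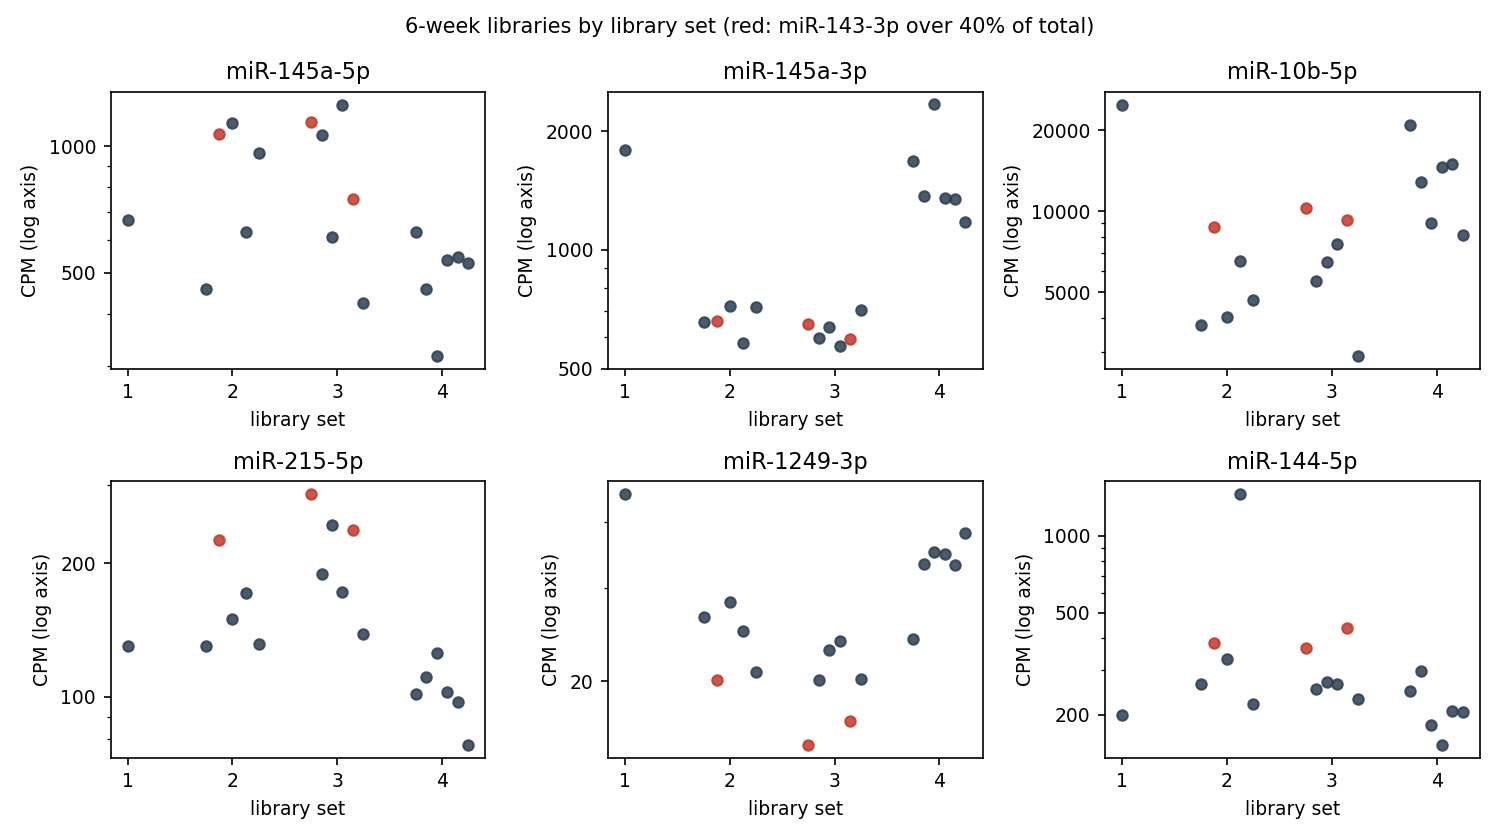
CPM (log axes) of 6 arms in the 18 libraries of 6 weeks, by library set; each point is 1 library and red marks the 3 with miR-143-3p over 40% of the total. miR-145a-3p is high in sets 1 and 4 (1178 to 2346 CPM) and low in sets 2 and 3, miR-10b-5p of the red points (8764 to 10301 CPM) lies above the dark points of the same set, and male_6wk replicate 4 stands alone at 1460 CPM in miR-144-5p.

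None of the 10 most abundant other arms passed. miR-22-3p, a microRNA of heart and skeletal muscle and the arm with the most counts after miR-143-3p was removed, was at 206463 CPM in male_6wk replicate 2, 195893 in male_6wk replicate 6 and 192627 in female_6wk replicate 1, against 163145 to 227335 in the others, a difference of 0.05 ± 0.09 (log2, SE). miR-133a-2-3p, which in muscle restrains smooth muscle genes, was at 90619 to 101928 CPM against 77225 to 111500, a difference of 0.03 ± 0.08. miR-30a-5p differed by 0.10 ± 0.08 and miR-26a-2-5p, from an intron of Ctdsp2, by -0.07 ± 0.10. miR-30e-5p, from an intron of Nfyc, was at 35738, 38702 and 32694 CPM against 24076 to 35540, a difference of 0.29 ± 0.11 that did not pass (edgeR adjusted p 0.463) and was 0.19 ± 0.10 with set in the model. miR-378a-3p, from an intron of Ppargc1b and tied to mitochondrial metabolism, differed by 0.20 ± 0.11, and by 0.04 ± 0.07 with set in the model. The remaining 4 of the 10 most abundant arms were miR-27b-3p, miR-486-5p, miR-3107-5p and miR-126a-5p, with differences of -0.31 to -0.16, and of -0.01 to 0.09 with set in the model. Of the 65 arms whose mean reached 1000 CPM, edgeR called 0, with 3 at an unadjusted p under 0.05 beside 28 of 347 (8.07%) over all arms.

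MicroRNAs of heart muscle were present in the members at levels that mostly lay inside the range of the others. miR-133a-1-3p, from another locus copy of miR-133a and among the 2 most abundant arms of the heart and skeletal muscle list, was at 8039, 7071 and 6226 CPM in male_6wk replicate 2, male_6wk replicate 6 and female_6wk replicate 1, against 6358 to 16075 in the others. The value of female_6wk replicate 1 was below all 15; the difference was -0.48 ± 0.25 (log2, SE; edgeR adjusted p 0.463), and -0.08 ± 0.11 with set in the model. miR-1a-1-3p, from a locus copy of the main muscle microRNA miR-1, was at 3138, 2995 and 2751 CPM against 2189 to 18940, a difference of -1.15 ± 0.60, and -0.07 ± 0.28 with set in the model. miR-208a-3p, from an intron of the alpha myosin gene Myh6 and found in heart muscle cells, was at 1162, 1376 and 1157 CPM against 974 to 1770. miR-499-5p, from an intron of Myh7b, was at 1627, 1605 and 1553 CPM against 1435 to 2043. miR-208b-3p, from an intron of Myh7, was at 1378, 1182 and 1077 CPM against 922 to 1828. These 3 arms and miR-1a-1-3p were taken up after their values were seen, and all 4 lay inside the range of the 15 others.

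The microRNAs known from particular cell types or roles were grouped into 12 lists, each measured as its share of the counts other than miR-143. None of the 12 passed an exact two-sided permutation test of the 816 ways to choose 3 of 18 libraries, with a smallest adjusted p of 0.608; 816 regroupings allow a p of 0.00123 at the least. The heart and skeletal muscle list took 11.3%, 11.95% and 11.8% of counts in male_6wk replicate 2, male_6wk replicate 6 and female_6wk replicate 1, against 9.55% to 13.4% in the others. The list of miR-145 arms, the smooth muscle microRNAs beside miR-143, took 0.182%, 0.181% and 0.140%, against 0.121% to 0.250%. Endothelial miR-126a took 4.70% to 5.05% against 4.17% to 7.67%, and its arm miR-126a-3p was at 10563 to 11055 CPM against 7772 to 12874. In bulk tissue, fewer cells of a type and less RNA per cell cannot be told apart.

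The shares of the blood and stroma lists lay inside the range of the others. The red blood cell list took 9.73% to 10.1% in the members and 7.90% to 18.1% in the others, and the white blood cell list 0.336% to 0.374% against 0.257% to 0.783%. In the white blood cell list, miR-142-5p, found across blood cells, was at 1795 to 2004 CPM against 1317 to 5599, and miR-150-5p, of mature lymphocytes, at 1012 to 1201 CPM against 440 to 1469. The fibroblast and matrix list, led by miR-21a-5p and miR-199a-2-3p, took 1.18% to 1.22% against 0.984% to 1.31%. The fat and mitochondrial list, led by miR-378a-3p and miR-378a-5p, took 5.42% to 6.58% against 3.80% to 6.92%. Of the lists, 2 reached beyond the range of the 15 in some member: the epithelial and lung list was at 0.0329% in male_6wk replicate 6 against a highest value of 0.0306%, and the liver and brain list was at 0.234% and 0.235% in the 2 male members against a lowest value of 0.236%. Neither passed, with unadjusted p of 0.206 and 0.141 by the exact permutation test. Of the 2 most abundant arms of the epithelial list, miR-203-3p was at 144, 190 and 166 CPM against 140 to 185, and miR-34c-5p at 48.4, 71.0 and 59.1 CPM against 34.5 to 65.9. In the liver and brain list, miR-128-1-3p was at 278, 168 and 206 CPM against 108 to 304. When libraries were regrouped within sets 2 and 3 alone (75 regroupings), again 0 of 12 passed. The smallest adjusted p by this exact permutation, for let-7, was 0.640 (unadjusted 0.0533). The let-7 list took 2.83% and 3.05% in male_6wk replicate 6 and female_6wk replicate 1, below the 3.16% to 3.75% of the others of set 3. In male_6wk replicate 2 it took 3.15%, inside the 3.14% to 3.33% of the others of set 2.

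**Figure D4:**
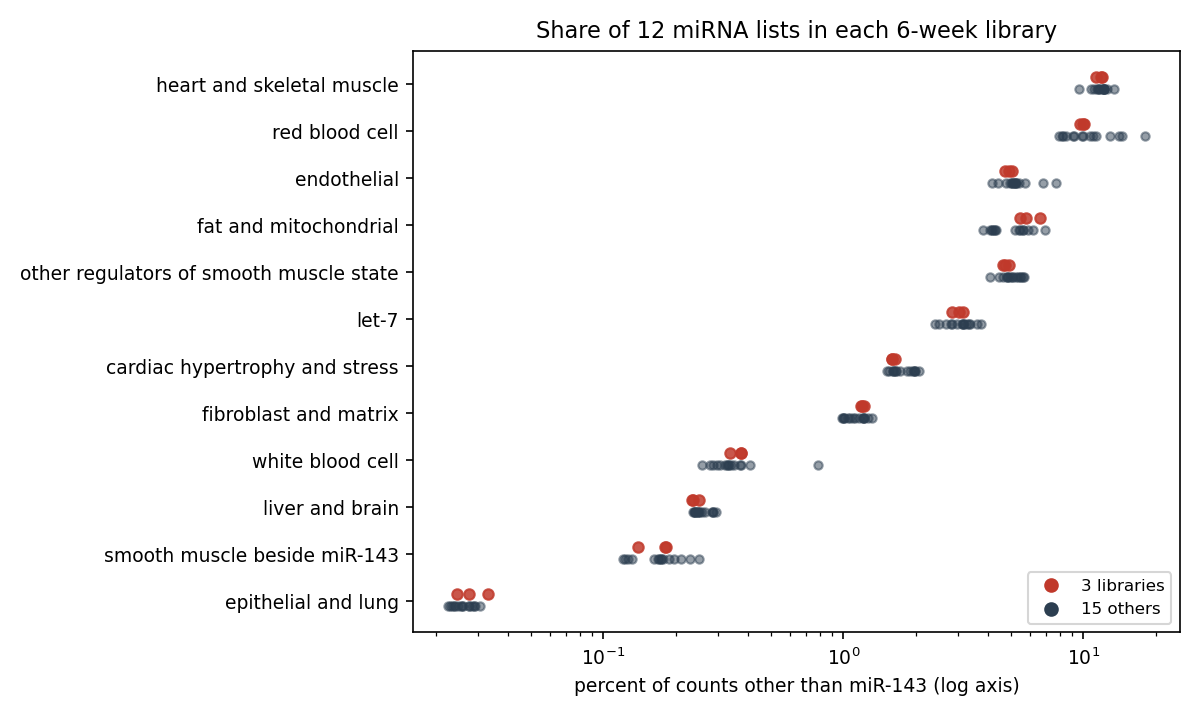
Share of counts other than miR-143 (percent, log axis) taken by each of 12 lists of microRNAs in the 18 libraries of 6 weeks; red points are the 3 libraries with miR-143-3p over 40% of the total and dark points the 15 others. Red and dark points overlap in every list, for example 11.3% to 11.95% against 9.55% to 13.4% for heart and skeletal muscle.

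Arm by arm the lists gave the same counts of calls. Of the 13 tested arms of the heart and skeletal muscle list 0 passed, with a median difference of -0.14 (log2) beside -0.02 over all 347 arms. Of 7 red blood cell arms 0 passed (median 0.16), of 16 fibroblast and matrix arms 0 passed (median -0.02) and of 23 let-7 arms 0 passed (median -0.10). With set in the model the medians of these 4 lists were -0.06, 0.09, 0.003 and -0.08 in turn. For let-7, 19 arms then lay below 0 and 4 above, beside 13 and 10 in the pooled fit. The 2 most abundant let-7 arms, let-7f-2-5p and let-7a-2-5p, differed by -0.13 ± 0.12 and -0.26 ± 0.10 by edgeR. The list of cardiac hypertrophy and stress microRNAs had 27 tested arms with a median of -0.20, of which 0 passed; with set in the model its median was 0.01. The list of other regulators of smooth muscle state, which holds miR-221, miR-222, miR-24, miR-26a, miR-100 and miR-204, was led by miR-26a-2-5p and miR-26a-1-5p (0.15 ± 0.08); it had 11 tested arms with a median of -0.32, and of -0.07 with set in the model; 0 passed in either fit.

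Among the arms tested, 12 differed by more than 1 on the log2 scale without passing. They included miR-146b-5p at -2.26 ± 1.145, miR-146-5p (miR-146a) at -1.95 ± 1.01, both restrainers of innate immune signalling, and miR-24-2-3p at -1.69 ± 0.86. Their levels followed the library sets: miR-146-5p was at 124, 167 and 160 CPM in the members, at 58.9 to 166 in the others of sets 2 and 3, and at 693 to 1544 in sets 1 and 4. With set in the model the differences of these 3 arms were 0.21 ± 0.37, 0.21 ± 0.27 and 0.10 ± 0.20 in turn. With that term 1 arm of the 347 differed by more than 1, and it was not called.

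The 5 arms with the smallest p in the comparison all had an adjusted p of 0.463 by edgeR. miR-215-5p, at chr1:185313610-185313630 on the plus strand in an exon of the noncoding gene 2010103J01Rik, is known from liver, kidney and gut and shares its seed with miR-192-5p. It was at 226, 287 and 238 CPM in male_6wk replicate 2, male_6wk replicate 6 and female_6wk replicate 1, against 77.6 to 244.5 CPM (median 130.4) in the others. Within its own set male_6wk replicate 2 was above the 4 others, at 130.4 to 171, while in set 3 the others reached 244.5, above female_6wk replicate 1. The difference was 0.86 ± 0.23 (log2, SE), and 0.54 ± 0.15 with set in the model (adjusted p 0.593). miR-192-5p, with the same seed, differed by -0.23 ± 0.17, and by 0.02 ± 0.08 with set in the model.

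miR-1249-3p, at chr15:84951545-84951566 on the minus strand in an exon of 5031439G07Rik, was the only arm that lay below all 15 others in every member (1 of 347, 0.288%). It was at 20.1, 15.1 and 16.8 CPM against 20.1 to 45.3 (median 26.5), with male_6wk replicate 2 at 20.09 and the lowest other library at 20.13. The difference was -0.73 ± 0.23 (log2, SE), and -0.40 ± 0.13 with set in the model (edgeR adjusted p 0.593). miR-27a-5p, the minor arm of miR-27a, was at 6.59, 26.0 and 30.9 CPM against 5.72 to 23.2, so that male_6wk replicate 2 did not share the high values of the other pair; its difference was 1.19 ± 0.36, and 0.72 ± 0.33 with set in the model. The main arm miR-27a-3p differed by -0.11 ± 0.12. miR-3061-3p, at 7.25 to 7.90 CPM against 3.46 to 7.26, differed by 0.53 ± 0.19, and let-7b-3p, at 106 to 122 CPM against 113 to 152, by -0.27 ± 0.10.

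The single arm above all 15 others in every member (1 of 347, 0.288%) was miR-339-3p, in an intron of 3110082I17Rik. It was at 51.7, 50.1 and 50.5 CPM against 27.1 to 48.4 (median 34.6), a difference of 0.46 ± 0.18 (log2, SE; edgeR adjusted p 0.463), and 0.23 ± 0.11 with set in the model. The other arm of the same hairpin went the other way: miR-339-5p was at 40.2, 39.7 and 42.4 CPM against 40.2 to 54.8, a difference of -0.25 ± 0.11, and -0.25 ± 0.10 with set in the model. Neither passed. Both arms were taken up after their values were seen.

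Against the other libraries of its own set, each member was higher in 6 arms (1.73% of 347) and lower in 8 (2.31%). With so few libraries per set some arms would meet this under random labels, and how many was not tested. The highest level among the 6 belonged to miR-10b-5p, which lies in the Hoxd cluster in introns of Hoxd3 and Hoxd4. It was at 8764 CPM in male_6wk replicate 2, where the others of set 2 had 3781 to 6511. It was at 10301 and 9273 CPM in male_6wk replicate 6 and female_6wk replicate 1, where the others of set 3 had 2891 to 7569. The libraries of sets 1 and 4 had 8135 to 24920 CPM, so the pooled difference was -0.05 ± 0.52 (log2, SE). With set in the model it was 0.83 ± 0.27, the smallest adjusted p of that fit, 0.593, and it did not pass. miR-10a-5p, which shares its seed, had 12564 to 17987 CPM against 12507 to 55021, and differed by 0.07 ± 0.17 with set in the model.

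The other 5 arms higher in each member than in the rest of its set were miR-148b-5p, miR-3061-3p, miR-339-3p and both arms of miR-330, a hairpin in an exon of Eml2. miR-330-5p was at 41.2, 45.2 and 41.6 CPM, against 27.9 to 31.8 in set 2 and 34.9 to 39.7 in set 3, a difference of 0.31 ± 0.09 (log2, SE) with set in the model (edgeR adjusted p 0.593). The 8 lower arms were miR-1249-3p, miR-151-5p, miR-223-3p, miR-339-5p, miR-340-3p, miR-98-5p, let-7a-2-5p and miR-378d-5p. miR-223-3p, a microRNA of neutrophils and other myeloid cells, was at 71.5, 85.9 and 77.8 CPM against 72.8 to 87.5 in set 2 and 96.4 to 101 in set 3, a difference of -0.23 ± 0.09 with set in the model (adjusted p 0.601). These arms were taken up after their values were seen, and none passed in any of these fits.

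miR-144-5p was the only arm called by any fit with both miR-143 arms left out of the totals and of the test. It is made with miR-451a from a red blood cell locus. It was at 383, 363 and 435 CPM in male_6wk replicate 2, male_6wk replicate 6 and female_6wk replicate 1, against 152 to 1460 CPM (median 247) in the others. The members stood above 14 of the 15; the exception was male_6wk replicate 4 at 1460 CPM, the library with the highest share of the red blood cell list, 18.1%. The difference was 0.31 ± 0.50 (log2, SE) by edgeR with an adjusted p of 0.708. DESeq2 gave 0.70 ± 0.18 with an adjusted p of 0.0289. Its default run can replace outlying counts in a group of this size. Whether it did so for male_6wk replicate 4 was not recorded. Within set 3 alone edgeR gave 0.66 ± 0.11 with an adjusted p of 0.0485 (1 of 339 arms, 0.295%). Without male_6wk replicate 4 edgeR gave 0.73 with an adjusted p of 0.0998. The value was 0.25 ± 0.45 with set in the model (adjusted p 0.974), -0.64 ± 1.22 within set 2, which holds male_6wk replicate 4 (adjusted p 0.995), and -0.06 in males alone (adjusted p 0.9991). Over the settings tried the adjusted p ran from 0.0289 to 0.9991. miR-144-3p and miR-451a-5p, from the same locus, differed by -0.08 ± 0.47 and 0.20 ± 0.46 over all 18 libraries. Within set 3 they differed by 0.65 ± 0.14 (adjusted p 0.154) and 0.54 ± 0.11 (adjusted p 0.127), in the direction of miR-144-5p, and did not pass. The red blood cell list as a whole took 9.73% to 10.1% of counts in the members, within the range of the others.

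The depth left for other arms was low in the members. They had 2894532 to 4638456 counts outside miR-143, against 3670480 to 13264450 in the others, although their total counts, 5129157 to 8141310, lay within the range of 4146777 to 14563754. The counts outside miR-143 follow in part from the choice of libraries by their miR-143-3p share, so no test is given for them. Thinned to 1 fixed depth, the members had 681 to 715 arms detected against 664 to 721 in the others. The 10 most abundant other arms took 65.1% to 66.2% of the remaining counts against 60.3% to 67.1%. Of the other 4 library measures none passed the exact permutation test, with a smallest adjusted p of 0.504.

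Leaving miR-143 in the totals changed what all other arms appeared to do. Scaled by the total count with miR-143 kept, and with no TMM, every other arm lost 0.65, 0.64 and 0.65 on the log2 scale in the 3 members relative to the median library. By edgeR 215 of the 337 other arms tested were then lower (63.8%) and 0 higher, and the median difference moved from -0.02 to -0.61. miR-22-3p read -0.55 and miR-133a-2-3p -0.56 on that scale, values near the shift of the median itself. With TMM factors computed with miR-143 kept in the table, 0 of the 337 were called and the median was 0.02. Of the 12 list shares, 11 passed as lower when miR-143 stayed in the totals, and 0 passed as shares of the remaining counts.

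**Figure D5:**
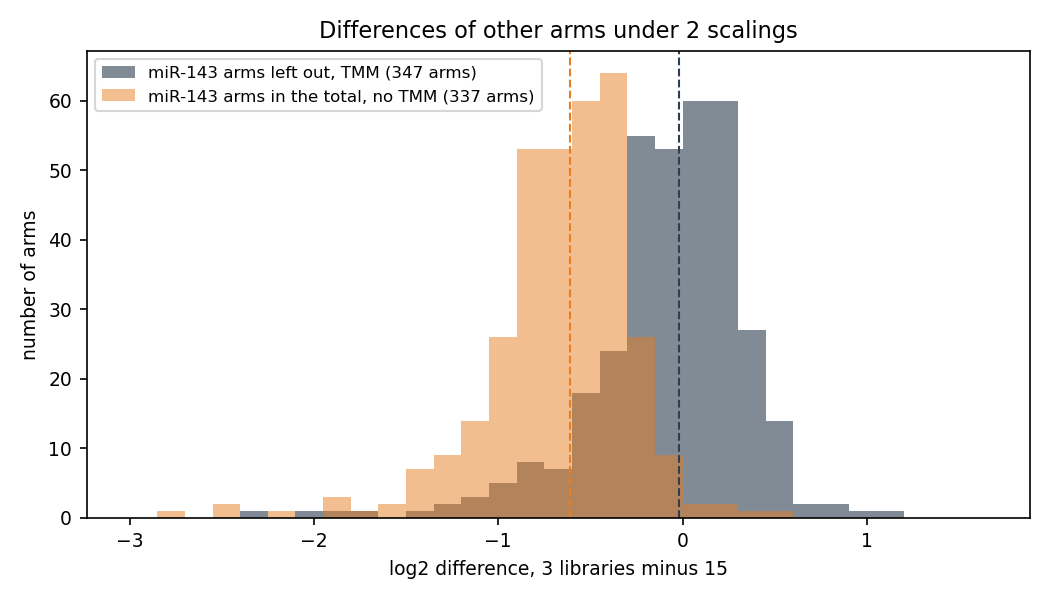
Number of arms by log2 difference between the 3 libraries and the 15 others, with both miR-143 arms left out and TMM scaling (dark, 347 arms) and with miR-143 kept in the total count and no TMM (orange, 337 arms); dashed lines are the medians. The median lies at -0.02 in the first case and at -0.61 in the second, and the whole distribution moves with it.

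A single other library of the series was dominated by another arm in a like way. In female_7wk replicate 2, miR-378a-3p took 46.4% of counts, beside a median of 3.75% over the other libraries. Relative to counts other than miR-143, miR-378a-3p was 10.1-fold and miR-378a-5p 8.12-fold over their medians. Its miR-143-3p share was 4.72%. In the 3 members, miR-378a-3p was at 51019 to 62670 CPM, inside the 40842 to 65015 CPM of the other 6-week libraries. This library was taken up after its values were seen, and has no replicate of its kind in the series.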

How the data were processed

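Small RNA from mouse hearts was measured in 39 libraries (Illumina TruSeq small RNA chemistry), per the labels' protocols. The deposited values are whole-number counts per mature microRNA arm, in 1 file for each library. The submitters' processing notes name the build GRCm38, and DESeq and edgeR with no role; how reads with several matching loci were counted, and by which aligner, is not given in the sources used here. Ligation and PCR favour some sequences, so a level is comparable between libraries and not between arms. Features listed only in files of the other sex were taken as 0. Features deposited as antisense to a microRNA gene were named after the microRNA of that strand where annotation showed 1.

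The members were the 6-week libraries with miR-143-3p above 40% of the total count. Members, lists and tests were chosen with earlier results of these data known. Groups came from the labels' sex and age. Arms were tested by quasi-likelihood in edgeR 4.0.16 (R 4.3.3) with TMM on counts without both miR-143 arms, for arms with 5 CPM or more in at least 5 of 18 libraries, with Benjamini-Hochberg adjustment over all arms tested and a call at an adjusted p under 0.05. It was tested on simulated counts with 1 fixed dispersion and no library sets, which does not show how it behaves with the sets seen here. Alternatives used DESeq2 1.42.0 with its default settings, limma 3.58.1 (voom), other scalings, filters and subsets. List shares and library measures were compared by exact permutation over samples. Library sets came from clustering the shares of counts among 10 locus copies over 39 libraries (Ward's method, scipy 1.17.1), cut at a fixed 7 sets. These copies include arms that were also tested, such as miR-26a-1-5p. Distances used log2 of CPM plus 0.5; a library was compared with the median of the others of its set, 4 for a member and 3 for another library of sets 2 and 3, which favours the member slightly. Totals per library ran from 1788245 to 14563754 counts; a count of 0 allows up to 3 counts. Same-numbered male and female 6-week libraries deviated with correlations of -0.386 to 0.421, so the numbers do not pair them.

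The text names the arms of miR-145a, the 10 most abundant other arms, the 5 arms with the smallest p, since fewer than 5 were called, and the 2 most abundant arms of each list; other arms were taken up after their values were seen.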

Additional observations from a re-analysis of the deposited data

Results flagged for a closer look

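In the 6 female libraries of 6 weeks, 69 values were looked at for a single library far from the rest, by the gap to its nearest neighbour over the range of the group; 9 lay past Dixon's 95% critical value, and chance flags about 1 group in 20. Of these, 5 belonged to female_6wk replicate 1, the female member. Its miR-143-3p share of 43.6% stood apart from 10.9% to 13.6%, and its miR-143-5p level of 305.4 CPM of the other arms from 26.6 to 44.8, as the choice of the library leads to. Its miR-378a-3p was at 62670 CPM beside 44045 to 50451 in the other females, its miR-27a-5p at 30.9 CPM beside 5.72 to 10.4, and its miR-144-5p at 435 CPM beside 152 to 231. The library is the only one of the females in set 3 apart from female_6wk replicate 6, and the part of the set in these values was not tested here.

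The remaining 4 belonged to libraries outside the members. In female_6wk replicate 4, miR-133a-2-3p was at 111500 CPM beside 93364 to 99400, miR-378a-5p at 589 CPM beside 421 to 483 and miR-208a-3p at 1770 CPM beside 1157 to 1328. In female_6wk replicate 5, endothelial miR-126a took 6.78% of counts beside 4.96% to 5.42%.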

How the results depend on the processing

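The count of called arms was 0 with another normalization of the remaining counts, another filter, sex or library set as a term, males alone (2 members), all 39 libraries, summed identical sequences and sense features alone; females alone also gave 0, with a single member against 5 libraries, which says little of stability; it was 1 with DESeq2 and 1 within set 3 (the latter chosen after seeing the data), miR-144-5p in both, and 215, all lower, with miR-143 kept in the total count. With the replicate block it was 0 (10 arms at an unadjusted p under 0.05), and since same-numbered libraries do not deviate together this fit is given only here. Leaving out each library in turn gave 0 called arms each time, 10 to 45 at an unadjusted p under 0.05 and a smallest adjusted p of 0.0507 (miR-215-5p, without male_6wk replicate 11) to 0.703; list shares and library measures gave 0 calls each time. With miR-143 in the totals 11 of 12 list shares were called, and the sign turned for fibroblast and matrix (-0.320 percentage points), fat and mitochondrial (-1.09) and epithelial and lung (-0.00697), and on the log2 scale for miR-22-3p (-0.55), miR-133a-2-3p (-0.56), miR-378a-3p (-0.40), miR-30a-5p (-0.50), miR-126a-3p (-0.47), miR-21a-5p (-0.49), miR-203-3p (-0.51), miR-26a-1-5p (-0.45) and miR-330-5p (-0.43); by construction this scaling shifts all other arms down. Of 3 relations of miR-143-3p to its partners, 1 passed with library sets pooled and 0 when centred within sets or within set 4. The rho with miR-145a-3p was 0.764 pooled, -0.218 centred and -0.771 within set 4. Another 34 values for single arms or lists passed as lower only with miR-143 kept in the totals; the other 2 are the calls of miR-144-5p. With 3 members against 15 and the spread between libraries seen here, differences smaller than the intervals given were not detectable.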
